A study of Mus musculus with 64 samples.

Results

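Mouse embryos kept with AM were followed from the late 1-cell to the late 2-cell stage, to see which RNAs fell and which stayed when the embryo's own transcription was to be blocked. The arrays were chosen by their titles: 3 at 54 h with AM (late 2-cell), 3 at 32 h with AM (late 1-cell) and, as the midpoint, 3 at 43 h with AM (early 2-cell), 9 of the 64 arrays of the series and of the 36 of its treatment set. Each array compared total RNA of embryos with a common reference RNA named Universal Reference, in 2 colours, over 22575 probes. Control embryos of the same age, named 32h-Control, 43h-Control and 54h-Control (3 arrays each), and 21h-Control embryos of the early 1-cell stage (3 arrays) carry no treatment in their labels. AM is read here as α-amanitin, from knowledge of such studies, since the labels do not spell it out. They give no dose, no time at which AM was added, no origin for the count of hours and no mouse strain. Nor do they say that replicates came from separate batches of embryos, so p-values measure only the spread between these samples.

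α-Amanitin binds RNA polymerase II and stops the synthesis of messenger RNA. A mouse egg stops transcription before it is fertilized and lives on stored maternal RNA, much of which is destroyed by the 2-cell stage, when the embryo's own genes are switched on. Part of that destruction is carried out by proteins already stored in the egg, among them the CCR4-NOT deadenylase and its adapter Btg4. Another part needs new transcripts of the embryo. With transcription blocked, embryos usually divide once and stop.

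Each value given is the log2 of embryo over reference, after each array was centred on its median. A fall is thus a fall relative to the median probe of the array, and a loss of 1 RNA cannot be told apart from a gain of the others. Nor, in such whole-embryo RNA, can fewer cells be told apart from less RNA per cell. The sign was turned from the deposited one, and this direction is likely, not settled: at 32 h with AM, 6 of 7 probes for 6 egg genes lay above the reference. Under the opposite sign, the falls and rises given here would swap. Ratios beyond 100-fold had been deposited at a limit, and values there are bounds. The interquartile range over probes was 1.63 to 1.68 on the arrays at 32 h, 1.75 to 2.08 at 43 h, and 2.61, 1.99 and 1.87 at 54 h. At 54 h the third array stood apart for the most abundant egg RNAs, and the upper limit held 93 features on the third array of 32 h and 79 on that of 54 h, while each of the other 7 arrays had at least 321 there. Probes for cumulus cell markers (6 probes of 5 genes) averaged -2.09 to -1.93 at 32 h and -2.62 to -1.94 at 54 h, with 1 above the reference and 0 called as changed. Of 3 probes for 2 blood genes, 0 lay above the reference and 1, for Ptprc, was called higher, and no sperm gene of the list was measured. The part of such cells in the results was not tested.

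From 32 to 54 h with AM, 1818 probes fell (8.05%) and 2170 rose (9.61%) by limma at an adjusted p under 0.05, of which 1585 and 1789 changed by at least 2-fold. The large changes were mostly falls: 524 probes fell and 183 rose by at least 4-fold, and 130 fell and 3 rose by at least 8-fold. Among 3089 genes named by a probe of their own, 413 fell (13.4%), 395 rose (12.8%) and 27 had probes called both ways. The median difference over all probes was 0.16, and 0.09 or 0.05 with the values as deposited or quantile-normalized. All 3 arrays at 54 h lay below all 3 at 32 h for 3824 probes (16.9%) and above for 5252 (23.3%). These counts lean on single arrays: 961 fell and 542 rose without the first array at 32 h, 1081 rose without the second, and 1052 fell and 1072 rose without the first array at 54 h. With each of the 6 arrays left out in turn, 809 of the falls and 417 of the rises passed every time. Genes named below passed in each of these 6 cases unless an exception is given. The 16 largest falls and 12 largest rises were chosen among probes whose groups did not overlap, so lack of overlap adds no support there.

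The largest fall among named genes was that of Rgs2, a regulator that shortens signalling by G proteins. Its probe read 3.02, 2.51 and 2.72 at 32 h, -0.34, 0.06 and -0.72 at 43 h, then -3.14, -2.66 and -4.72 at 54 h. The 3 times did not overlap, and the RNA went from above to below the reference. It fell 76.6-fold (log2 difference -6.26 ± 0.53 SE, n = 3 arrays per time, adjusted p = 4.9e-08). In controls the same probe fell by 4.06, and the difference between the changes, -2.20, did not pass (adjusted p = 0.22). Lipa, the acid lipase of lysosomes, read 5.73, 5.68 and 5.58 at 32 h, 3.73, 3.49 and 3.18 at 43 h, then 1.77, 1.32 and 0.52 at 54 h, a steady descent that never crossed the reference. It fell 22.0-fold (-4.46 ± 0.42, adjusted p = 1.3e-07), against -4.33 in controls. Msh6, a mismatch repair protein, read 1.03, 0.57 and 0.68 at 32 h, -2.61, -1.88 and -2.67 at 43 h, then -4.90, -3.29 and -3.38 at 54 h. Most of its fall was over by 43 h (-3.15), and in all it fell 24.5-fold (-4.62 ± 0.53, adjusted p = 1.9e-06).

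**Figure D1:**
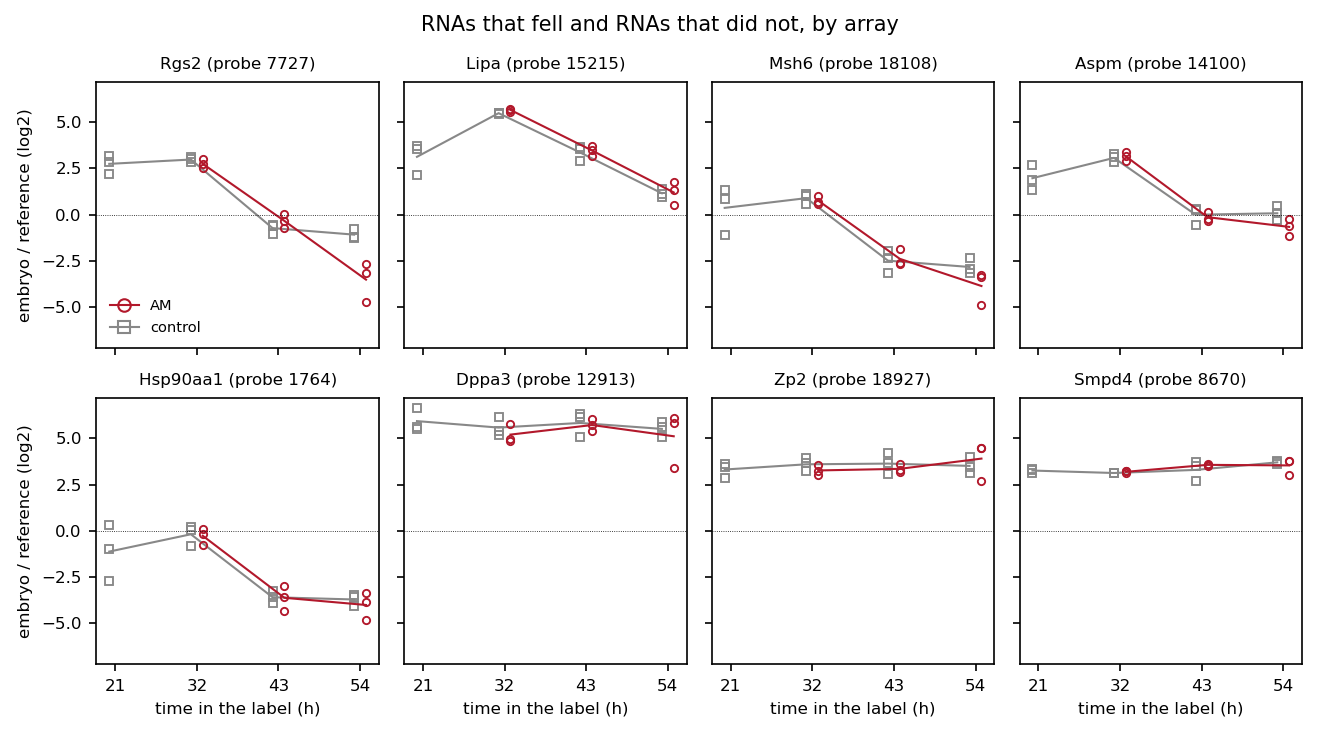
Embryo-to-reference log2 ratio of 8 probes on each array against the time in the label, with AM (red circles, from 32 h) and in controls (grey squares, from 21 h). Lines join the means of 3 arrays. Rgs2, Lipa, Msh6, Aspm and Hsp90aa1 descend in both series of arrays. With AM no fall was called at the probes shown for Dppa3, Zp2 and Smpd4. The lowest circle at 54 h of Dppa3 (3.41) and of Zp2 (2.72) is the third array.

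The rest of the 16 largest falls were of genes of varied roles. Aspm, which holds microtubules together at the spindle poles, read 3.36, 3.19 and 2.90 at 32 h and -1.16, -0.22 and -0.60 at 54 h, with -0.23, 0.15 and -0.33 already at 43 h. The 2 later times overlapped, so its fall lay almost wholly in the first interval (-3.29 of -3.81 ± 0.44, adjusted p = 2.2e-06). A second Aspm probe also fell with AM (-2.29) but was not called in controls (-0.19, adjusted p = 0.83). Hsp90aa1, a chaperone that folds kinases and steroid receptors, behaved alike in time: 0.13, -0.18 and -0.74 at 32 h, -4.32, -2.96 and -3.57 at 43 h, then -4.82, -3.87 and -3.33 at 54 h. Its fall was 13.4-fold (-3.74 ± 0.54, adjusted p = 4e-05), of which -3.35 was reached by 43 h. Tpra1, a membrane protein built like a G-protein-coupled receptor, kept most of its level to 43 h: 4.62, 4.92 and 4.46 at 32 h, 3.48, 4.18 and 3.76 at 43 h, then 1.41, 1.13 and 0.06 at 54 h. All 3 of its probes fell, by 3.80, 2.93 and 2.45 on the log2 scale.

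Aplf, which acts in the repair of DNA breaks, fell 13.4-fold from 2.21, 1.85 and 2.10 at 32 h to -1.86, -1.50 and -1.71 at 54 h (adjusted p = 2.8e-06). Nudc, a partner of the motor dynein, fell 13.7-fold from 1.73, 0.93 and 0.72 to -3.24, -2.32 and -2.40 (adjusted p = 1.9e-05). Neither pair of groups overlapped, as the choice of the largest falls required. Acat1, a mitochondrial thiolase, fell by 4.21 at 1 probe, while its other probe gave -0.58 (adjusted p = 0.28). Usp10, a deubiquitinase, fell by 4.10, with 54 h arrays as far apart as -6.67, -0.69 and -2.02. Grin2b, a glutamate receptor subunit, fell from 4.30, 4.28 and 2.78 to 0.12, -0.54 and -0.04 (-3.94 ± 0.77, adjusted p = 0.00097). Probes for Luc7l3 (-3.92) and Cstf3 (-3.93), factors of RNA processing, each had 1 array at 54 h at the lower limit, and the Cstf3 call was lost without the first array at 54 h. A second Cstf3 probe fell as well (-2.59), 1 rose (1.60) and another stayed, and the other 2 Luc7l3 probes rose (0.98 and 1.49). Neither Luc7l3 rise passed in every leave-out, and this second Cstf3 fall and the Cstf3 rise did not both pass. Dnajc7, a co-chaperone, is not counted among the 16, since 2 of its 3 arrays at 54 h were at the lower limit; the fitted difference was -4.84. Of the 16 largest falls, 14 passed with each of the 6 arrays left out, and Zbed3, described with the egg genes, was the other exception.

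The first interval held more calls than the second. From 32 to 43 h with AM, 437 probes fell (1.94%) and 109 rose (0.483%), or 114 (3.69%) and 9 (0.291%) of the named genes. Of the calls, 66.1% were falls with arrays scaled to a common spread and 41.6% with array weights, where rises were thus the majority, against 80.0% here. From 43 to 54 h, 23 fell (0.102%) and 0 rose (0.0%), although 2349 had an unadjusted p under 0.05. These intervals share the 43 h arrays with each other and the outer arrays with the full comparison. With 1 array left out, falls of the first interval ranged from 173 to 342 and rises from 13 to 79, with no more than 214 and 60 without the first or second array at 32 h or the first or the third at 43 h. The 23 falls of the second interval became 12, 2 and 7 without the first, the second and the third array at 43 h, and 8 and 48 without the first and second at 54 h. Sizes differed less than calls: the probes that fell over the whole span had median changes of -0.84 in the first and -0.70 in the second interval, and those that rose 0.71 and 0.62. For all 16 of the largest falls and all 12 of the largest rises the mean at 43 h lay between those at 32 and 54 h, and 7 and 3 of them were called by 43 h. Genes called in the second interval were 5 in number (0.162%), namely Rgs2 (-3.17), Tpra1 (-2.94), Lipa (-2.26), the chromosomal passenger subunit Cdca8 (-2.07) and Mrtfa, the last named after its values were seen.

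Control embryos, on arrays of their own, shared the calls of most falls and of fewer rises, while nearly all changes of both sets kept their sign. Between 32 and 54 h, 2260 probes fell (10%) and 2658 rose (11.8%) in controls, or 567 (18.4%) and 447 (14.5%) of the named genes. Rises in controls numbered 1173 without the second 32 h control array and 1559 to 1754 without any 1 of those at 54 h. Of the 1818 that fell with AM, 1189 (65.4%) also fell in controls, 12 rose and 617 were not called, with 93.9% of the same sign. Their median change was -1.61 with AM and -1.47 in controls. Of the 2170 that rose with AM, 713 (32.9%) rose in controls, 2 fell and 1455 were not called, with 95.8% of the same sign. The medians were 1.35 with AM and 0.81 in controls. Both sets were chosen on the AM arrays. The change was called larger with AM than in controls for 47 of the falls and 7 of the rises. On single arrays the fallen set had medians of 0.47, 0.30 and 0.24 at 32 h with AM, -0.64, -0.30 and -0.73 at 43 h, then -1.57, -1.01 and -1.09 at 54 h. In controls it stood at 0.18, 0.37 and 0.25, then -0.91, -0.48 and -0.66, then -1.16, -0.96 and -1.0. The 21 h controls, which took no part in choosing the set, gave -0.71, 0.21 and -0.15, so that 2 of the 3 lay below every array at 32 h. For the risen set the 21 h controls gave 0.91, 0.17 and 0.30, above all arrays at 32 h. No probe was called between AM and control at 32 h (0.0%).

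**Figure D2:**
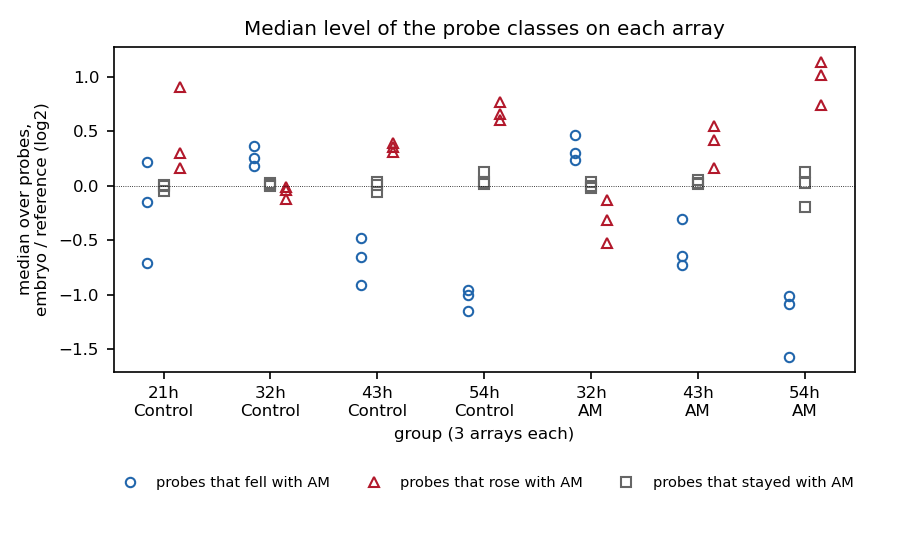
Median embryo-to-reference log2 ratio, on each of 3 arrays per group, of the 1818 probes that fell (circles), the 2170 that rose (triangles) and the 6029 that stayed (squares) from 32 to 54 h with AM, the arrays that chose the classes included. Control arrays at 54 h sit at -1.16 to -0.96 for the fallen and 0.60 to 0.77 for the risen set, and controls at 21 h and 32 h lie between the extremes of the AM arrays.

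Egg genes went different ways. Of 10 measured genes of the oocyte list, 4 fell (40%, against 13.4% of all named genes) and 0 rose, with a median difference of -0.88 against 0.07. Across the settings tried, 1 to 5 of the 10 fell and 0 to 1 rose. Without the third array at 54 h, 1 fell and 1 rose. Of the 4 falls, that of Plat alone, the tissue plasminogen activator, held in each of the 6 leave-outs. Plat read 0.89, 0.82 and 0.39 at 32 h, -0.80, -0.20 and -0.79 at 43 h, then -1.24, -0.70 and -1.45 at 54 h, with no overlap, and fell 3.55-fold (-1.83 ± 0.35, adjusted p = 0.00085). Zbed3, a zinc finger protein of the egg, read 4.85, 3.88 and 5.01, then 4.41, 5.20 and 3.25, then 1.15, 2.16 and -1.18. It fell 14.6-fold (-3.87 ± 1.11, adjusted p = 0.018), a call lost without the first or the third array at 32 h or the third at 54 h. Kit, the receptor for stem cell factor, read 3.16, 3.59 and 2.90 at 32 h, 2.77, 3.48 and 2.72 at 43 h, then 1.55, 2.02 and 0.68 at 54 h. Neither interval was called for Kit on its own, at -0.22 to 43 h and -1.58 after it (adjusted p = 0.93 and 0.33). Its fall of 3.48-fold (adjusted p = 0.021) was lost without the first or second array at 32 h or the third at 54 h, and in controls Kit fell by 2.22. Khdc3, part of the subcortical maternal complex, fell 1.67-fold and lost its call in 5 of 6 leave-outs, all but the third array at 32 h.

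The other 6 did not pass. Dppa3, which shields the maternal genome from demethylation, read 4.85, 5.80 and 4.96 at 32 h and 5.84, 6.10 and 3.41 at 54 h, a difference of -0.09 with a 95% interval from -1.20 to 1.02. Zp2, a protein of the egg coat, read 3.02, 3.56 and 3.22 and then 4.5, 4.5 and 2.72, with an interval from -0.26 to 1.54. In both, the third array at 54 h was the low one and the groups overlapped. Bmp15, the growth factor of the oocyte, gave -1.23 and -0.94 at its probes (adjusted p = 0.051 and 0.068), and both passed with quantile normalization or a common spread. Tcl1b1 gave -0.88 (adjusted p = 0.15) and Oog2 0.19 (adjusted p = 0.79). Btg4, the adapter that brings the CCR4-NOT deadenylase to maternal mRNA, was at or near the upper limit throughout, at 6.50, 6.56 and 6.58 at 32 h and 6.58, 6.64 and 5.32 at 54 h. With 8 of its 9 AM arrays at the limit its change is not measured there. With arrays scaled to a common spread it was called lower (-1.92, adjusted p = 0.035). That scaling divides each array by its spread, wider at 54 h, which lowers a value at the limit there, so no conclusion is drawn from this call. In the meiosis list 2 of 6 genes fell (33.3%, beside 13.4% of all named genes) and 0 rose: Sycp2 of the synaptonemal complex, from 5.46, 4.33 and 4.96 to 2.45, 2.95 and 1.60 (6.0-fold, adjusted p = 0.0041), and Sgo2a, a protector of cohesion (-0.96, lost without the first array at 32 h).

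Stability needs its own measure, since a probe that misses the test may still have changed. A probe was said to stay where it was not called and the 95% interval of its change lay within 2-fold either way. By this rule 6029 probes stayed (26.7%), 345 of them with a value at a limit, and 12558 (55.6%) neither changed nor stayed. Of the 10 RNAs that met this rule with the highest level at 32 h, Btg4 and the calcium-binding protein Calb1 were at the upper limit on 8 and 5 of the 9 AM arrays, so that their stability is not measured. The other 8 were Etnk1, Gm28453, Smpd4, Mindy3, Taf3, Auts2, Mbtd1 and Dnmt3b. Smpd4, a sphingomyelinase, read 3.13, 3.22 and 3.23 at 32 h, 3.57, 3.61 and 3.53 at 43 h, then 3.80, 3.79 and 3.03 at 54 h (0.35, interval -0.11 to 0.80). Taf3, a subunit of the general transcription factor TFIID, read 3.49, 2.86 and 2.88 at 32 h and 3.20, 3.72 and 2.37 at 54 h (0.02, interval -0.73 to 0.78). The groups overlapped in both genes. Gm28453, a predicted gene, differed by -0.00 with an interval from -0.47 to 0.47.

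A stable probe did not always speak for its gene. Of these 10 genes, 3 had another probe that fell and 2 had one that rose. For Dnmt3b, a DNA methyltransferase, probe 5582 stayed (0.03, interval -0.49 to 0.55) and probe 1848 fell (-1.50, adjusted p = 0.01), a call lost without the first array at 32 h. Mindy3, a deubiquitinase, had a stable probe and one that fell by 1.69, and Smpd4 one that fell by 1.66. The first of these falls was lost without the first or the third array at either time, the other without the first at 54 h. Second probes rose for Etnk1 (2.29), the ethanolamine kinase, and for Mbtd1 (1.49), a reader of methylated histones. Nanos1, a repressor of translation in germ cells, was picked after values at a limit had been set aside: it stayed at 2.56, 2.64 and 3.25 at 32 h against 2.96, 3.63 and 2.00 at 54 h (0.05, interval -0.88 to 0.97).

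Of the machinery that destroys mRNA, about as many genes fell as rose. In the list of deadenylation and decay factors, 3 of 24 fell and 3 rose (12.5% each, beside 13.4% and 12.8%), and 10 had a probe that stayed. Pan2, a deadenylase, fell 2.35-fold from 2.27, 1.88 and 2.17 to 0.93, 0.66 and 1.03 (adjusted p = 0.0077). Dis3l, a nuclease of the exosome, fell 2.08-fold from 0.66, 0.65 and 0.36 to -0.75, -0.53 and -0.22 (adjusted p = 0.0057). Their groups did not overlap, and Dis3l gave -0.01 in controls. Cnot8 (0.93) and Cnot10 (1.36), subunits of CCR4-NOT, rose but lost their calls when 1 array was left out, the first at 32 h and the third at 54 h among others. Across the settings tried, 0 to 7 genes of this list fell and 0 to 6 rose. Of 14 genes that store mRNA or control its poly(A) tail, 0 fell (0.0%), 4 rose (28.6%, beside 12.8%) and 2 had probes called both ways. Of the 4 rises, 0 passed in each leave-out. The absence of falls depended on the scaling, with 4 falls and 3 rises under quantile normalization and 5 of each under a common spread.

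Spindle genes fell in a larger share than those of any other list with as many genes. Of 30 genes for spindle, kinetochore and cytokinesis, 12 fell (40%, beside 13.4% of all named genes), 1 rose and 1, Ran, had probes called both ways. Their median was -0.37 against 0.07 for all named genes. The falls passed in each leave-out for 9 of the 12, against 203 of 413 over all named genes, and numbered 7 to 14 across settings. Cenpe, the kinetochore motor, read 3.88, 3.37 and 3.76 at 32 h, 1.87, 1.25 and 1.66 at 43 h, then 0.25, 0.80 and 1.17 at 54 h, without overlap, and fell 7.64-fold (-2.93 ± 0.50, adjusted p = 0.00023). Cdca8, of the Aurora B complex, read 0.73, 0.40 and 0.86, then -0.29, 0.35 and -0.61, then -2.84, -2.12 and -1.81, and fell 7.56-fold (adjusted p = 2.8e-06). The others, given after their values were seen, included Anln (-2.76), which scaffolds the cleavage furrow, the microtubule proteins Nusap1 (-2.72) and Prc1 (-2.61), and the kinases Aurka (-2.43) and Aurkc (-2.35). In controls 14 of the 30 fell and 0 rose. Cdc20, the activator of the anaphase-promoting complex, fell early, from 0.69, -0.61 and -0.38 at 32 h to -2.60, -2.36 and -2.88 at 43 h, then -2.96, -2.64 and -2.30 at 54 h (5.79-fold, adjusted p = 0.00027). In its list of 27 cyclin, Cdk and cell cycle genes, 5 fell (18.5%) and 4 rose (14.8%), beside 13.4% and 12.8% of all named genes.

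Among chaperone genes, 9 of 31 fell (29.0%) and 0 rose, beside 13.4% and 12.8% of all named genes, and 7 fell and 5 rose with arrays scaled to a common spread. Their median was -0.41, and 6 of the 9 passed in each leave-out. Beside Hsp90aa1 and Dnajc7 they held Dnaja1, an Hsp40 whose probes fell by 3.27 and 1.89, and Hspa9 (-2.60), the Hsp70 of mitochondria, both named after their values were seen. Hspb1, a small heat shock protein chosen in the same way, went the other way in controls (1.86), but its fall with AM (-1.36) was lost without the first or second array at 32 h or the first at 54 h. Falls in this list ranged from 3 to 11 and rises from 0 to 5 across settings. In controls, 13 of the 31 fell and 4 rose.

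The small list for ribosome assembly in the nucleolus had 6 of 12 genes lower (50.0%) and 2 higher (16.7%), beside 13.4% and 12.8% of all named genes. Of these, 3 and 0 passed in each leave-out. The 3 were Nolc1, a nucleolar phosphoprotein, Polr1a, the large subunit of RNA polymerase I, and Imp4, which processes ribosomal RNA and was named after its values were seen. Polr1a read -1.28, -1.29 and -1.62 at 32 h and -6.71, -2.13 and -4.31 at 54 h, the first of these at the lower limit (-2.99 ± 0.62, adjusted p = 0.0017). Other probes of Polr1a gave 0.36 and 0.14, and Imp4 gave -2.28 with 2 other probes not called. None of the 3 was called as lower in controls at the same probe (0.13, 0.38 and -0.39), and the difference between AM and controls passed for Nolc1 alone, described below, with Polr1a at -3.37 (adjusted p = 0.062). In controls 2 of the 12 genes fell and 3 rose, beside 18.4% and 14.5% of all named genes. Of 24 cytosolic ribosomal protein genes, 5 fell with AM (20.8%) and 3 rose (12.5%), the latter near the 12.8% of all named genes. Rplp0, of the ribosomal stalk, went from 2.17, 2.30 and 1.94 to -0.57, -0.30 and -0.74 (6.37-fold, adjusted p = 0.0046), against 0.01 in controls, where the difference, -2.68, did not pass (adjusted p = 0.19), and its second probe gave -0.41 with AM.

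**Figure D3:**
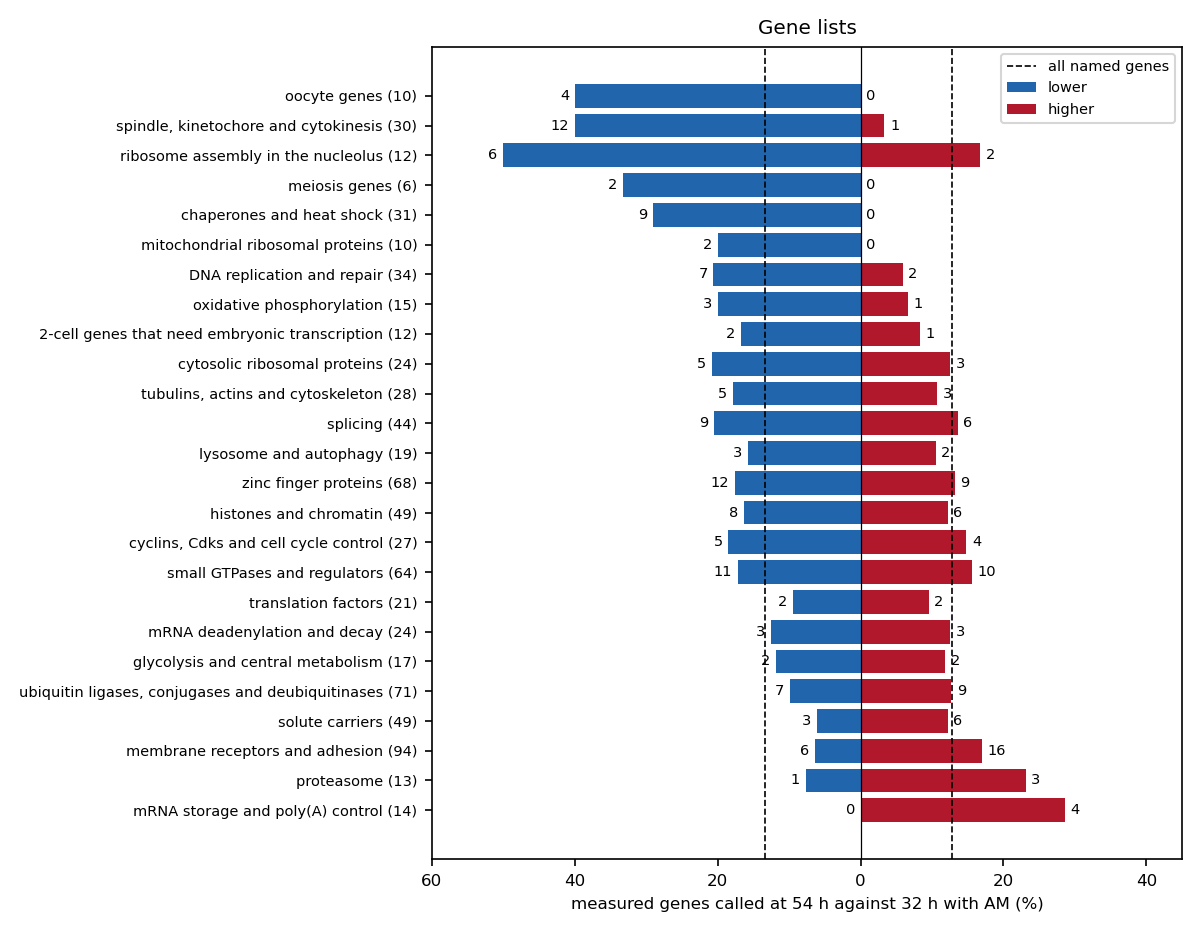
Share of the measured genes of each list called lower (left, blue) or higher (right, red) at 54 h against 32 h with AM, with the number of genes called at the bar's end and the number measured in brackets. Dashed lines mark the shares over all 3089 named genes, 13.4% and 12.8%. Genes with probes called both ways are in neither bar.

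Chromatin genes fell in 8 of 49 cases (16.3%) and rose in 6 (12.2%), near the 13.4% and 12.8% of all named genes. Ezh2, the methyltransferase of Polycomb complex 2, read 1.19, 1.06 and 1.47 at 32 h, -0.77, -0.30 and -1.22 at 43 h, then -2.17, -1.43 and -1.16 at 54 h (7.10-fold lower, adjusted p = 0.00044), while a second probe gave -0.02. Smarcb1, a core subunit of the BAF remodeller, fell 6.44-fold from -0.36, -0.35 and -0.31 to -3.56, -3.04 and -2.48 (adjusted p = 1.8e-06). The groups of each were apart. Dnmt1, the maintenance DNA methyltransferase, fell at 3 probes (-2.0, -1.90 and -0.97, the last lost without the first or second array at 32 h or the third at 54 h), and Tet3, the oxidase of paternal 5-methylcytosine, fell by 2.21, both named after their values were seen. Among DNA replication and repair genes 7 of 34 fell (20.6%) and 2 rose (5.88%), the falls led by Msh6 and by the licensing factor Cdt1 (-3.48), a second probe of which was not called. Of 15 genes of oxidative phosphorylation 3 fell, Uqcrc2 (-2.64) of complex III, Sdha (-2.45) of complex II and, named after its value was seen, Atp5b (-2.14) of the ATP synthase, and 1 rose. Psmd4, the ubiquitin receptor of the proteasome, fell 8.97-fold (-3.17 ± 0.55, adjusted p = 0.00027). It was the 1 fall (7.69%) among 13 proteasome genes, of which 3 rose (23.1%).

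The remaining lists are given beside 13.4% lower and 12.8% higher over all named genes, and not all of them lay near these shares. Falls and rises numbered 9 and 6 of 44 for splicing (20.5% and 13.6%), 12 and 9 of 68 for zinc finger proteins (17.6% and 13.2%) and 11 and 10 of 64 for small GTPases (17.2% and 15.6%). For ubiquitin enzymes they were 7 and 9 of 71 (9.86% and 12.7%), for the cytoskeleton 5 and 3 of 28 (17.9% and 10.7%). Lysosome and autophagy had 3 and 2 of 19 (15.8% and 10.5%), and central metabolism 2 and 2 of 17 (11.8% each). They numbered 2 and 2 of 21 for translation factors, 2 and 0 of 10 for mitochondrial ribosomal proteins and 3 and 6 of 49 for solute carriers. Membrane receptors and adhesion molecules leaned upward, with 6 of 94 lower (6.38%) and 16 higher (17.0%), but 1 of the 16 rises passed in each leave-out, and rises ranged from 0 to 21 across settings.

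Rises were smaller than falls, and fewer of them held. Of the 12 largest, 8 passed in each leave-out and 2 also rose in controls, against 14 and 13 of the 16 largest falls. At 32 h, 3 of the 12 lay above the reference, against 12 of the 16. Smad2, which carries activin and TGF-β signals to the nucleus, read 1.45, 2.22 and 3.13 at 32 h, 3.53, 3.62 and 5.22 at 43 h, then 6.12, 5.23 and 4.62 at 54 h. The groups at 32 and 54 h did not overlap, as the choice of the largest rises required. Smad2 rose 8.30-fold (3.05 ± 0.59, adjusted p = 0.00079), against 0.81 in controls (adjusted p = 0.34), a difference between the changes of 2.24 that did not pass (adjusted p = 0.28). Lnpk, which shapes the endoplasmic reticulum, rose at both probes: probe 1467 went from -2.36, -1.63 and -1.70 to 1.26, 0.62 and 1.08 (2.88 ± 0.47, adjusted p = 0.00013) and probe 1908 rose by 2.38. Bcor, a corepressor, rose by 2.92 at 1 probe, from -2.72, -2.07 and -1.32 to 1.15, 0.36 and 1.12, with another not called (-0.60). Ubr4, a ubiquitin ligase, rose by 2.58 at 1 of 3 probes, and Dlx1, a homeobox gene, by 2.79 at 1 of 2. Nol11 (2.61), of ribosome production, and 4930581F22Rik (2.52) completed those that held. Oxsr1 lost its call without the first array at 32 h, Cmss1 without that or the third at 54 h, Sptbn1 without 3 of the 6 arrays, the first among them, and Slc38a1 without any but the second at 54 h. The rise of Sptbn1, a spectrin, at 1 probe (2.36) stood beside falls at 2 others (-2.04 and -1.69).

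Some genes rose and fell at once. Among 867 genes with several probes, 27 had probes called in opposite directions. For 2 of the 27, a probe of each direction passed in every leave-out. Ppig, a cyclophilin of the spliceosome, was one: probe 12755 read 0.90, 1.11 and 1.11 at 32 h and -1.14, -0.57 and -0.31 at 54 h (-1.72 ± 0.36, adjusted p = 0.0019). Its probe 6003 read 1.63, 2.07 and 2.14 at 32 h, 4.47, 3.96 and 4.24 at 43 h, then 4.93, 4.49 and 4.41 at 54 h (2.66 ± 0.52, adjusted p = 0.00087). Neither pair overlapped, and both probes had moved by 43 h. Rbm39, a splicing factor, was the other, with probe 6589 at -1.41 (adjusted p = 0.0038) and probe 7422 at 1.24 (adjusted p = 0.004). Eif4e, the cap-binding protein, fell at probe 18476 (-2.02) and rose at probe 15193 (1.03), the former lost without the first or second array at 32 h or the first at 54 h. The same split stood in controls for Eif4e (-2.54 and 1.71) and for Top1, DNA topoisomerase I (-1.77 and 1.5, with -2.47 and 1.18 under AM, the rise lost in 4 of the 6 leave-outs: the first 2 arrays at 32 h and the first and the third at 54 h). Which transcripts or transcript ends these probes read is not known from the files used here.

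Whether a change depended on AM was tested as the AM change minus the control change. It was negative for 190 probes (0.842%) and positive for 11 (0.0487%), or 39 (1.26%) and 1 (0.0324%) of the named genes, and 76.8% of calls were negative with quantile normalization, against 94.5% here. With array weights the imbalance was gone (1073 negative and 1096 positive, or 49.5% negative), and with 18 arrays in the fit 75.1% were negative. Negative calls numbered 56 to 98 without any 1 of the 32 h arrays, the second or the third 54 h control array or the first AM array at 54 h, and fewer than 159 without the second AM array at 54 h. They were 159 without the first 54 h control array and 333 without the third AM array at 54 h, and positive calls ranged from 2 to 23. They were 0 without the first AM arrays of both 32 and 54 h, where 2250 probes still had an unadjusted p under 0.05. Of the 190, 143 were not lower with AM and rose in controls, 34 fell with AM and were not called in controls, 12 fell with AM and rose in controls, and 1, for Gpx7, fell in both.

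**Figure D4:**
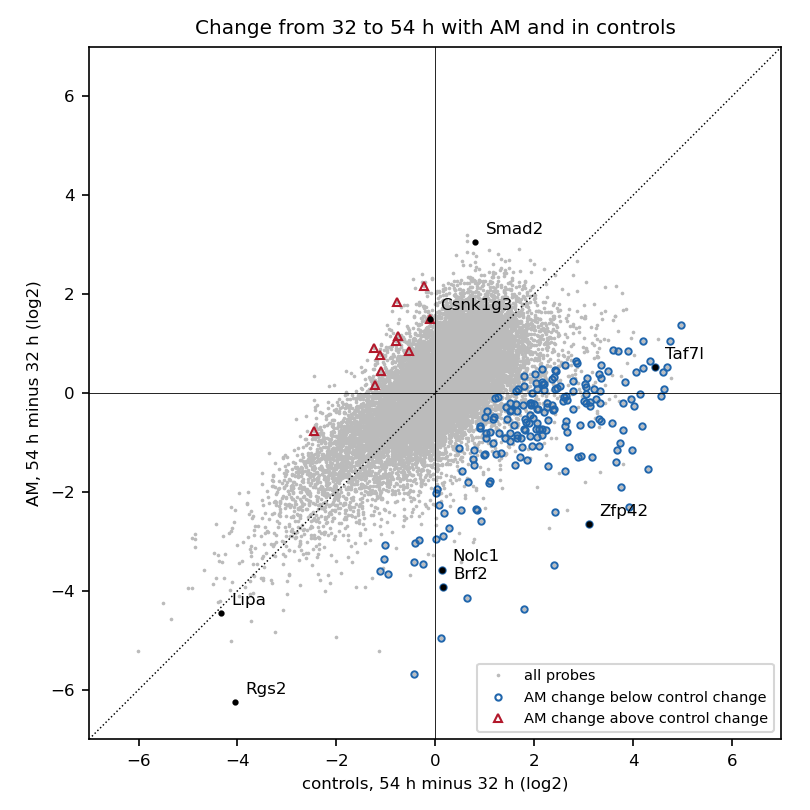
Log2 difference between 54 and 32 h with AM (vertical) against that in controls (horizontal) for all 22575 probes, with the dotted line where both are equal. Blue circles are the 190 probes whose change was lower with AM, red triangles the 11 whose change was higher, and most blue circles lie right of 0 near the horizontal axis.

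Among RNAs whose change differed, those that fell with AM and were not called in controls from 32 to 54 h were few. Brf2, a subunit of the RNA polymerase III factor TFIIIB, read 0.82, 0.65 and 0.65 at 32 h, -1.02, -1.82 and -1.48 at 43 h, then -4.73, -2.81 and -2.13 at 54 h with AM. Control arrays read 0.54, 0.14 and 0.36 at 32 h and 0.17, 0.86 and 0.47 at 54 h. The AM groups were apart and the control groups overlapped, and the changes differed by -4.09 ± 0.81 (adjusted p = 0.012). Nolc1, at 1 of its 3 probes, read -0.73, -0.40 and -0.90 with AM at 32 h, -2.75, -3.30 and -3.91 at 43 h, then -5.28, -3.75 and -3.71 at 54 h, against -0.96, -0.87 and -1.03 and then -1.58, -0.38 and -0.51 in controls. Its changes differed by -3.70 ± 0.70 (adjusted p = 0.011), though probe 10957 fell in both, by 1.90 and 1.45, and the third gave -0.31 with AM. At the first probe, controls at 43 h read -2.62, -2.32 and -3.52, below the controls at both other times. Def6, a guanine nucleotide exchange factor, fell by 3.68 with AM and gave -0.51 in controls, but the difference did not pass (adjusted p = 0.083).

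RNAs that rose in controls and not with AM were the larger group. Zfp42 (Rex1), a zinc finger protein of early embryos and stem cells, read 0.34, 1.15 and 0.12 at 32 h and 4.19, 3.38 and 3.38 at 54 h in controls. With AM it read 0.64, 0.96 and 0.29 at 32 h, 2.24, 0.40 and -1.05 at 43 h, then -2.95, -1.50 and -1.60 at 54 h. Its changes differed by -5.76 ± 1.12 (adjusted p = 0.012), while its fall with AM on its own (-2.65, adjusted p = 0.022) was lost without the first or second array at 32 h or the first at 54 h. A second Zfp42 probe rose by 2.74 in controls and gave 0.66 with AM (adjusted p = 0.44). Taf7l, a TFIID subunit of germ cells, rose in controls from 0.06, 0.16 and 0.08 to 4.60, 4.38 and 4.65, and went with AM from -0.24, 0.11 and 0.39 to 0.31, 0.28 and 1.25. The difference was -3.92 ± 0.74 (adjusted p = 0.011), seen at 1 of its 2 probes, while the other gave 0.65 in controls. Castor1, the arginine sensor of mTORC1, rose in controls from -2.16, -1.19 and -0.93 to 2.89, 2.37 and 2.37, and lay at -1.25, -1.35 and -1.10 and then -0.87, -0.93 and -2.26 with AM (-4.08 ± 0.87, adjusted p = 0.017). That call was lost without the first control array at 32 h or the second at 54 h. For Brf2, Nolc1, Zfp42 and Taf7l it held with each of the 12 arrays left out, and none of the 5 passed without both first AM arrays (adjusted p from 0.069 to 0.089).

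**Figure D5:**
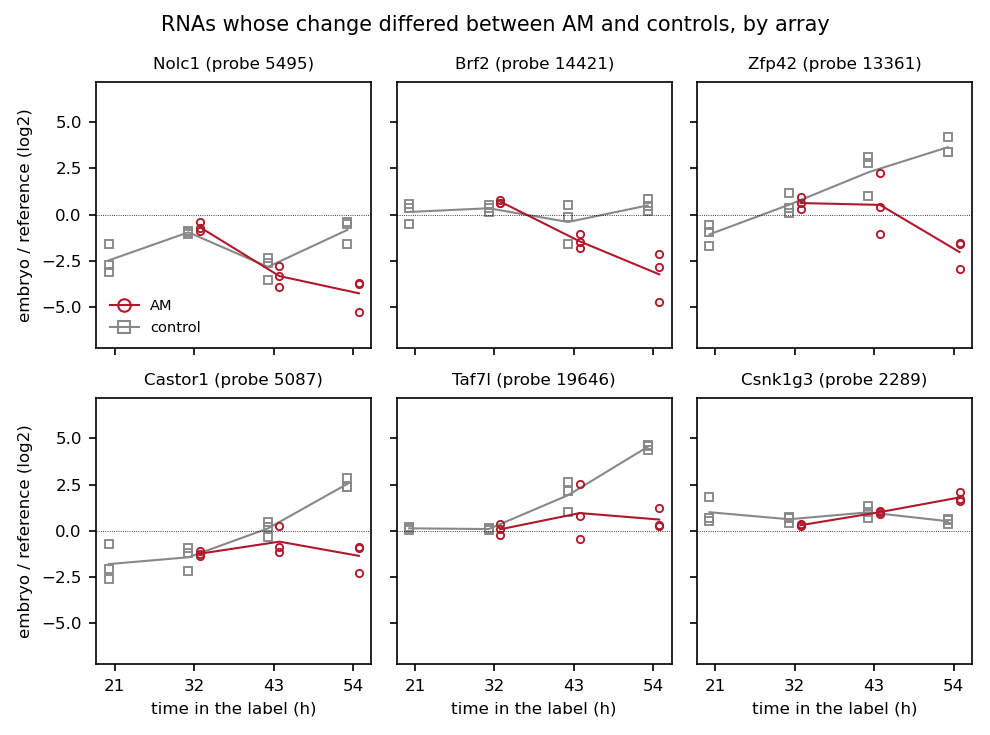
Embryo-to-reference log2 ratio on each array against the time in the label for 6 probes whose change from 32 to 54 h differed between AM (red circles) and controls (grey squares), with lines through the means of 3 arrays. Nolc1 and Brf2 fall with AM, Zfp42, Castor1 and Taf7l rise in controls, and Csnk1g3 rises with AM to 1.59 to 2.12 while controls stay at 0.35 to 0.62.

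Genes listed as switched on at the 2-cell stage were compared at 54 h. The list was chosen with earlier results of these data known, so it cannot serve as an independent check of the label AM. Over all probes 880 were lower with AM than in controls (3.9%) and 218 higher (0.966%), and 80.1% of calls were lower. That share was 67.2% with quantile normalization, 62.8% with 18 arrays in the fit and 53.3% with array weights. Of 12 genes of the list measured, 5 were lower with AM (against 5.5% of all named genes) and 0 higher (against 2.53%). They were Ctsl, Hsph1, Wipi2, Clcn7 and Ncl, each at 1 probe. Wipi2, an autophagy protein, read -2.18, -2.13 and -0.84 with AM and 0.78, 1.51 and 1.24 in controls (-2.90, adjusted p = 0.00014). Ctsl, a lysosomal protease, and Hsph1, a chaperone, lay at or near the lower limit with AM, and with such probes left out the 5 became 3. From 32 to 54 h the 12 genes held 2 falls and 1 rise with AM, and 0 falls and 4 rises in controls.

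For sequences, 3 genes whose change differed were chosen after their values were seen. At 1 probe, Nolc1 fell with AM and was not called in controls over the whole span. Its controls were lower at the midpoint, and another of its probes fell both with AM and in controls. Zfp42 and Castor1 rose in controls alone. The 250 bases before the start of each gene are shown. They are from RefSeq on GRCm38.p6, read 5′ to 3′ on the gene's strand, and lie at chr19:46075597-46075846 (+) for Nolc1, chr8:43307010-43307259 (-) for Zfp42 and chr11:4217975-4218224 (+) for Castor1. Capitals mark matches, on either strand, to the CCAAT box (CCAAT), the GC box (GGGCGG), the TATA box (TATAAA) and the E-box (CACGTG), none of which overlap here.
Nolc1: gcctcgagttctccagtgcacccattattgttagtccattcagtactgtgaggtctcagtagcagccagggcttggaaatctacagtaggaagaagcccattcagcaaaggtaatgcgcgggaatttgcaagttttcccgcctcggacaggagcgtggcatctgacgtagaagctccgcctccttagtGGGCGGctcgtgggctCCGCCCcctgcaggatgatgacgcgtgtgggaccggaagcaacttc
Zfp42: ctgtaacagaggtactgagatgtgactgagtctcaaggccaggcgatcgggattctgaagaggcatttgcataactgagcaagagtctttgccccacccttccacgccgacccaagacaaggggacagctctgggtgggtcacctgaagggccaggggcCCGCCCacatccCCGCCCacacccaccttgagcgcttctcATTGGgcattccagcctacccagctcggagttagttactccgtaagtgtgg
Castor1: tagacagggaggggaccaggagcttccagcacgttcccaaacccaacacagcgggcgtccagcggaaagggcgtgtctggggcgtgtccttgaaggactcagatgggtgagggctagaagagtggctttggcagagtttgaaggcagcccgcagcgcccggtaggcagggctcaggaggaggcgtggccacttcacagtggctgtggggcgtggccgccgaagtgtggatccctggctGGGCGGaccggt

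Nolc1 has 2 GC boxes, Zfp42 has 2 GC boxes and 1 CCAAT box, and Castor1 has 1 GC box, and no TATA box or E-box stands in these windows. Of the 39 genes with a lower change under AM, 34 had a promoter in the table and 79.4% of these held a GC box, beside 60.9% of 2497 named genes and 32.7% of all 32851 promoters. For the genes that fell with AM the GC box share was 62.1%, for those that rose 63.7% and for those that stayed 62.2%. A CCAAT box stood before 43.3% of genes that fell, 36% of those that rose, 34.0% of those that stayed and 35.4% of all named genes. For the 34 promoters of genes with a lower change under AM this share was 26.5%. The median span of the gene on the genome was 35.0, 38.1 and 35.6 kb for genes that fell, rose and stayed. It was 23.9 kb for the 39 with a lower change under AM and 34.8 kb over all named genes. These shares are descriptions without a test.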

How the data were processed

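Per the labels, each array held embryo total RNA in the first channel and Universal Reference in the second. The authors deposited 1 table of processed values that behave as log10 ratios within -2 to 2; the log base was read from these limits. Background correction, normalization within arrays, dyes, amplification and labelling were not given in the sources used here. From the deposited values, log2 of embryo over reference was obtained with a factor of 3.32 and a turned sign, and the median of each array was then subtracted.

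All 36 treatment-set arrays, in 12 groups of 3 taken from the labels, were fitted per probe with limma 3.58.1 in R 4.3.3 (lmFit, contrasts and eBayes, 1 mean per group, no sample dropped). Tests are two-sided, with Benjamini-Hochberg adjustment over the 22575 probes of each comparison and a threshold of 0.05. The number of arrays limits the precision. Of the probes, 4262 carry 1 gene symbol in the platform annotation, 6822 carry several and 11491 are unnamed here; probes with several entered every test without a name. A gene was called where at least 1 probe was and none the other way. The fit was tested on simulated data.

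Genes named are the 16 largest falls and 12 largest rises called with groups apart, the 10 highest RNAs that stayed, the largest 2 called each way of each list, all measured members of the oocyte, decay and 2-cell lists, genes with opposite probes, and the largest differences between AM and control changes. Others are said to be named after their values were seen. The members, lists and tests were chosen with earlier results of these data known. Alternatives covered centring, scaling, array weights, limits, filters, the arrays in the fit and single arrays left out. Deviations from group means of same-numbered AM arrays correlated between 32 and 43 h (0.15 to 0.50) and between 43 and 54 h (0.22 to 0.31), but at -0.01 to 0.20 between 32 and 54 h. The labels do not say what the numbers share, and the replicate number as a block was an alternative.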

Additional observations from a re-analysis of the deposited data

Results flagged for a closer look

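The change from 32 to 54 h differed between AM and controls, by the contrast of both changes in limma (adjusted p under 0.05), for 190 probes with a lower and 11 with a higher change under AM. Among named genes, those with the largest lower changes were Zfp42 (-5.76), Sbno1 (-4.76), Brf2 (-4.09), Castor1 (-4.08), Taf7l (-3.92) and Ccdc192 (-3.84). Sbno1, of the helicase family, and Ccdc192 rose in controls, by 3.75 and 3.31, and gave -1.01 and -0.53 with AM. Other differences were Nolc1 (-3.70), Wipi2 at probe 6748 (-3.06) and Pa2g4 at probe 4744 (-3.05), the last of which fell with AM by 1.45, a call lost without the second array at 32 h or the first at 54 h, and rose in controls by 1.61. Ctsl (-3.14) and Hsph1 (-2.07) had all 3 arrays with AM at 32 h at the lower limit, so that their changes with AM are not measured. Csnk1g3, a casein kinase, had the only higher change among named genes (1.61): it rose with AM 2.83-fold and gave -0.10 in controls. With each of the 12 arrays left out in turn, Brf2, Nolc1, Pa2g4, Sbno1, Taf7l and Zfp42 passed all 12 times, Castor1 passed 10, Wipi2 8, Ccdc192 5, Ctsl 2, Hsph1 2 and Csnk1g3 1. Groups of 3 arrays were not searched for outlying samples.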

How the results depend on the processing

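Leaving out 1 array at a time, falls and rises from 32 to 54 h with AM ranged from 961 to 1920 and 542 to 2118, from 32 to 43 h from 173 to 342 and 13 to 79, from 43 to 54 h from 2 to 48 and 0 to 8, in controls from 1511 to 1896 and 1173 to 1962, lower and higher changes under AM from 56 to 333 and 2 to 23, and probes that stayed from 4381 to 5523. Without the first arrays of both 32 and 54 h with AM, a setting added after the data were seen, these comparisons gave 500 and 187, 203 and 15, 7 and 2, and 0 and 0 for the difference between AM and controls; 17 of the 28 largest changes passed. Without the third arrays of both times, 3919 probes stayed, 6 changes were higher under AM and 1 probe rose from 43 to 54 h. Array weights gave 3640 rises from 32 to 54 h, 1685 falls and 2369 rises to 43 h, 126 and 46 after it, 4499 and 6880 in controls, and 1073 lower and 1096 higher changes under AM. With fewer arrays in the fit, 232 fell and 44 rose to 43 h and 1 rose after it (9 arrays), and 289 and 96 changes were lower and higher under AM (18 arrays). Quantile normalization gave 187 rises to 43 h, 1 after it and 77 higher changes under AM, and a common spread 276, 10 falls after 43 h, and 119 lower and 18 higher changes under AM. Higher changes under AM numbered 6 as deposited and 2 with the less variable probes left out, where 204 stayed by construction; 909 stayed within 1.5-fold. The 2-cell list kept 3 genes with probes at a limit left out. Except by construction, the causes were not tested. No called named probe changed sign. With the replicate number as a block in the fit (replicate block), falls and rises were 1867 and 2389, 456 and 136, 22 and 0, 2282 and 2702 in controls, and 183 and 12 for the difference, which moved no count by over 1.5 times. Signal over background was not analysed here.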
